A study of Mus musculus with 8 samples.

Results

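A set of 10 genes that mark the granule cells and Purkinje cells of the cerebellum, or the territory that forms it, were followed in the RNA of newborn mouse brains after maternal exposure to cadmium (Cd). They were chosen by name, as *Atoh1*, *En2*, *Zic1*, *Barhl1*, *Pcp2*, *Calb1*, *Gabra6*, *Cbln1*, *Skor2* and *Neurod1*, and their Ensembl identifiers picked 10 of the 49585 rows of the gene count table. The brains came from 8 B × C F1 females, with a C57BL/6J mother and a CAST/EiJ father, that were collected on postnatal day 1. The dams of 4 pups drank water with 0 ppm CdCl2 and those of the other 4 drank water with 50 ppm, before and during pregnancy, and each pup was from a different litter. Poly(A) RNA from an aliquot of 1 pulverized whole brain went into each library, which held 22916434 to 30708087 reads counted on genes, aligned to the C57BL/6J genome. The cerebellum is a small part of such a sample, so fewer cells of a type and less RNA per cell cannot be told apart.

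Granule cells arise from *Atoh1*-expressing precursors of the rhombic lip that spread over the cerebellar surface as the external granule layer and go on dividing after birth, driven by sonic hedgehog from Purkinje cells. Purkinje cells, the inhibitory output neurons of the cerebellar cortex, arise from the ventricular zone and are already born at this age, but still extend dendrites and form synapses. Several of these genes are also known from other places, such as *En2* in the midbrain, *Zic1* in the dorsal midline, *Calb1* and *Cbln1* in forebrain neurons, and *Atoh1* and *Barhl1* in the brainstem.

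The library of 0 ppm replicate 1 stood apart for the genes described here. *Atoh1* was at 0%, *Skor2* at 3.61% and *Pcp2* at 14.0% of their mean CPM (read counts scaled to a common library total) in the other 7 brains. These were 3 of the 8 members that reached 10 counts in 4 or more libraries, whereas 0.429% of the 16532 genes counted that well were under 25% of that mean in this library. It was also the lowest of the 8 libraries for 7 of the 9 members that were tested, against 11.5% of all genes. *En2* was the exception among the members with more than a few reads. Hindbrain *Hox* genes were also low in this library. The summed CPM of 13 of them was 0.0341 in this library, 0.781 in 0 ppm replicate 2, 18.3 and 32.1 in 0 ppm replicates 3 and 4, and 110.6, 40.6, 23.8 and 31.5 in the 50 ppm brains. Of those 13 genes *Hoxa3*, *Hoxa4* and *Hoxd4* were at 0 in every library. 0 ppm replicate 2 was the highest of the 8 brains for 5 of the 9 members (*Atoh1*, *En2*, *Zic1*, *Barhl1* and *Pcp2*), against 15.7% of all genes. *Calb1* was instead second lowest there. The part of the *Hox* values in those of the members was not tested. The comparison of each member is therefore given with and without 0 ppm replicate 1, and that of other genes where it moved with this or another library.

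**Figure D1:**
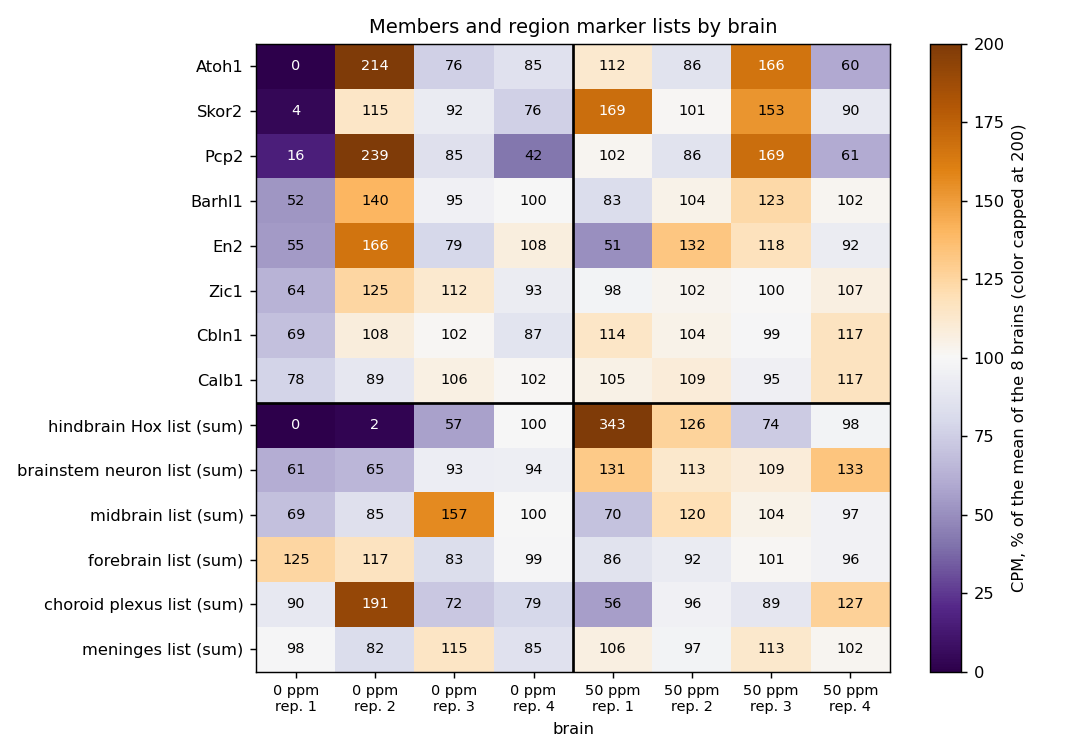
CPM of 8 members (upper rows) and summed CPM of 6 marker lists (lower rows) in each of the 8 brains (columns), as a percentage of the mean of the 8 brains; the numbers in the cells are these percentages and the color scale ends at 200. 0 ppm replicate 1 is low for the members and the Hox list, and 0 ppm replicate 2 is low for the Hox list and high for Atoh1, Pcp2 and En2.

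The other marker lists differed less between these libraries. The sum of 11 brainstem neuron genes was 61.0 to 93.7 CPM at 0 ppm and 109 to 133 CPM at 50 ppm, with no overlap and none of its genes at 0 in all libraries; 6 of the 11 had an unadjusted p under 0.05, all higher at 50 ppm, against 2.31% of all genes. The sum of 14 forebrain genes was 937 to 1401 CPM at 0 ppm, highest in replicate 1, and 972 to 1139 CPM at 50 ppm, and 8 of the 14 had an unadjusted p under 0.05, all lower at 50 ppm, against 1.44% of all genes. One gene of that list, *Dlx1*, had a log2 fold change of -0.42 (SE 0.085), an adjusted p of 0.232 in edgeR and of 0.0197 in DESeq2, and no overlap between the doses. The sums overlapped between the doses for 8 midbrain genes (35.5 to 80.7 against 35.7 to 61.4 CPM), 8 choroid plexus genes (464 to 1234 against 362 to 819 CPM), 8 meninges genes (480.5 to 670.2 against 566 to 658 CPM), 7 blood genes (127 to 311 against 99.3 to 402 CPM) and 8 cell division genes (203 to 266 against 199 to 250.4 CPM). Whether any of these tissues had a part in the values of the cerebellar genes was not tested.

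The question put to the members was whether the 50 ppm brains differed from the 0 ppm brains, and no member passed the test. edgeR's quasi-likelihood test gave 0 of 9 an adjusted p under 0.05, and DESeq2 also gave 0, where 0.0173% of the 23113 genes tested passed with edgeR and 0.0779% with DESeq2. An unadjusted p under 0.05 was found for 2 of the 9, *Cbln1* and *Gabra6*, both higher at 50 ppm, against 3.75% of all genes, of which 2.31% were higher and 1.44% lower. *Gabra6* passed the filter on low counts only through the 50 ppm brains, so it had to differ and its p lends the count no support, which leaves *Cbln1* among the other 8. Without 0 ppm replicate 1 *Cbln1* no longer had such a p, where 3.76% of all genes did, and 0 members passed the adjusted threshold, against 0.00879%. DESeq2 put the same number of members, 2, under 0.05 before adjustment. A positive log2 fold change was found for 8 of 9 members with all libraries and for 4 of 9 without 0 ppm replicate 1, where 49.0% and 49.2% of all genes were positive. *Gabra6* is in both counts, although the filter fixed its sign. The median of the 9 members moved from 0.18 to -0.11 without 0 ppm replicate 1, beside -0.0033 and -0.0029 over all genes. With *Gabra6* left out, these medians were 0.17 and -0.11. The sign of the median thus changed with 1 control library. That library was the lowest for 7 of the 9, so leaving it out had to lower the fold changes of those 7. Without 0 ppm replicate 2, the highest for 5 of the 9, the median was 0.34.

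**Figure D2:**
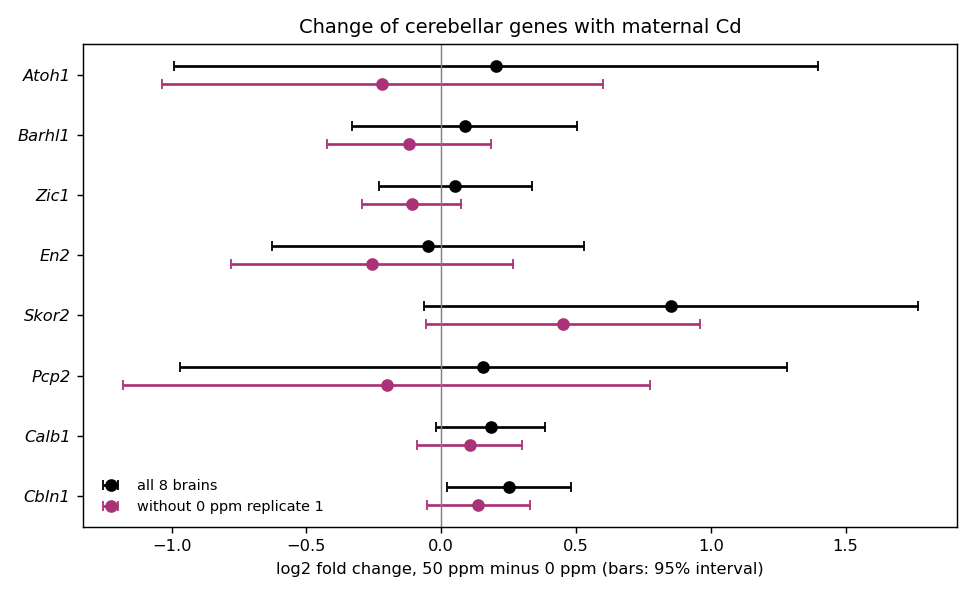
log2 fold change of 8 members (50 ppm minus 0 ppm) from edgeR's quasi-likelihood fit, with bars for the 95% interval, over all 8 brains (black) and without 0 ppm replicate 1 (purple). Only the interval of Cbln1 over all 8 brains, from 0.02 to 0.48, leaves out 0; Gabra6, which had no reads at 0 ppm, is not drawn.

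Per kilobase of exon, the highest member was *Zic1* with 33.8 ± 5.98 CPM per kilobase (SD over the 8 brains), followed by *Cbln1* with 21.8 ± 3.40, *Calb1* with 9.88 ± 1.22, *Barhl1* with 4.73 ± 1.23 and *En2* with 4.12 ± 1.61. *Skor2* had 0.794 ± 0.399, *Atoh1* 0.384 ± 0.253, *Pcp2* 0.357 ± 0.259 and *Gabra6* 0.0252 ± 0.0329 CPM per kilobase, and *Neurod1* was at 0. *Zic1* was above *Cbln1* and *Cbln1* above *Calb1* in 8 of 8 brains. *Barhl1* was above *En2* in 6 of 8 brains and *Atoh1* above *Pcp2* in 5 of 8, and both pairs lay within their spread; the longest transcript as the length exchanged *Atoh1* and *Pcp2*. *Zic1*, *Cbln1* and *Calb1*, the most abundant, are also known from other regions, while *Skor2*, *Atoh1*, *Pcp2* and *Gabra6* had at most 120 reads in any brain.

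*Atoh1*, the transcription factor that specifies granule cell precursors, lies on the forward strand at chr6:64729125-64731245 (GRCm38) in a single exon. Its reads were 0, 47, 19 and 18 in 0 ppm replicates 1 to 4 and 26, 20, 38 and 11 at 50 ppm. The mean was 0.766 ± 0.725 CPM at 0 ppm and 0.864 ± 0.371 CPM in the exposed ones (SD, n = 4 each). The control brains held the highest and the lowest value, and all 50 ppm brains lay between them. The 0 reads in 0 ppm replicate 1 allow up to 0.102 CPM (3 counts), below the 0.485 CPM of the lowest of the other brains. The log2 fold change was 0.20 (SE 0.57, 95% interval -0.99 to 1.40, adjusted p = 0.999), and it was -0.22 (SE 0.39) without 0 ppm replicate 1. With so few reads the change of *Atoh1* was poorly bounded.

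*Barhl1*, a homeobox factor of rhombic lip derivatives that acts downstream of *Atoh1*, lies on the reverse strand at chr2:28907679-28916668. Its CPM was 9.69, 26.0, 17.6 and 18.5 at 0 ppm and 15.3, 19.3, 22.7 and 18.9 in the 50 ppm brains. Again the controls held both extremes and enclosed the 50 ppm brains. The log2 fold change was 0.09 (SE 0.20, 95% interval -0.33 to 0.50), and -0.12 (SE 0.15) without 0 ppm replicate 1.

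The upstream sequences of *Atoh1* and *Barhl1* are shown because *Barhl1* acts downstream of *Atoh1* and because *Atoh1* protein binds E-boxes, written CANNTG. The 250 bases before the RefSeq start of *Atoh1* and before the outermost of the 2 RefSeq starts of *Barhl1* (GRCm38.p6) are given, at chr6:64728875-64729124 on the forward strand and chr2:28916669-28916918 on the reverse strand, both outside annotated exons, with E-box matches in capitals.
Atoh1: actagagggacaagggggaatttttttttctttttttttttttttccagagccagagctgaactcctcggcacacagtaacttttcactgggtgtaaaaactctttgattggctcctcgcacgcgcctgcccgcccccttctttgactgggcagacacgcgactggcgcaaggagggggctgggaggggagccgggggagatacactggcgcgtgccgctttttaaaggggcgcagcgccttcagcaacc
Barhl1: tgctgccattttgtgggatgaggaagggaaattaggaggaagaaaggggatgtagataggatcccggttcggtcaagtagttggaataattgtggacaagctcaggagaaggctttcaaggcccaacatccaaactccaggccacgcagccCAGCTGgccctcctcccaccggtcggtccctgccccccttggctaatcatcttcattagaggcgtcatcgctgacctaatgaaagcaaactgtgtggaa
On both strands, CANNTG was not found before *Atoh1* and was found 1 time in the stretch shown for *Barhl1*, as CAGCTG, which reads the same on both strands. The stretch before the other start of *Barhl1* also held 1 CAGCTG. Of 32851 RefSeq promoters searched over the same length, 66.2% held CANNTG and 13.0% held CAGCTG. A match of this kind is common and describes only these letters. RefSeq promoter entries were used for 6 of the 10 members; *En2*, *Calb1*, *Cbln1* and *Skor2* had none in the table used.

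*Zic1*, a zinc finger factor that keeps granule precursors dividing, lies on the reverse strand at chr9:91358058-91365810. Its CPM was 122, 239, 215 and 178 at 0 ppm and 187, 197, 193 and 206 in the 50 ppm brains. The 50 ppm brains lay close together, with a coefficient of variation of 3.89%, whereas the controls had 27.1%, or 14.6% without replicate 1. Read counting alone gives 1.38%. The difference in spread was not tested. For *Zic1* the log2 fold change was 0.05 (SE 0.14, 95% interval -0.23 to 0.34), and -0.11 (SE 0.088) without 0 ppm replicate 1.

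*En2*, a homeobox gene of the midbrain and hindbrain boundary that patterns the cerebellar lobules, lies on the forward strand at chr5:28165694-28172166. Its CPM was 7.95, 24.1, 11.6 and 15.7 at 0 ppm and 7.37, 19.2, 17.1 and 13.5 in the 50 ppm brains. It was low in 1 brain of each dose, 0 ppm replicate 1 and 50 ppm replicate 1, and the doses overlapped over nearly their whole range. *En2* had a log2 fold change of -0.05 (SE 0.28, 95% interval -0.63 to 0.53), and -0.26 (SE 0.25) without 0 ppm replicate 1.

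Reads were near or at 0 for 2 members of the granule lineage. *Gabra6*, the GABA-A receptor subunit that granule cells gain as they mature, lies on the reverse strand at chr11:42306437-42321072. It had 0 reads in the 4 control brains and 2, 4, 2 and 5 reads in the 50 ppm brains. The doses did not overlap, as for 2.09% of all genes in either direction and 1.19% with the 50 ppm brains higher, although a gene without reads at 0 ppm could be tested only through the 50 ppm brains. The mean was 0.126 CPM at 50 ppm, and 3 counts in each control library would come to 0.107 CPM. The 50 ppm mean also carries counting error, so no lower limit on the fold can be given. Its adjusted p was 0.703 in edgeR's quasi-likelihood test, and at the lowest 0.269 over the alternatives. It was also the only member without overlap when 0 ppm replicate 1 was left out, as 4.55% of all genes then were, 2.4% with the 50 ppm brains higher. Since 13 reads in all separate the doses, the difference rests on counts near the limit of this depth. *Neurod1*, which drives the differentiation of granule neurons, lies on the reverse strand at chr2:79452521-79456751 and was listed at 0 in all 8 libraries, so it entered no test. In counting error alone a 0 allows up to 0.098 to 0.132 CPM per library, which limits the reads assigned to the gene and, should reads have been lost in counting, not its expression. Its relatives *Neurod2* and *Neurod6* had 2547 to 4440 and 4642 to 8695 reads. Of its exon bases 7.4% are shared with *Cerkl*, on the same strand, which had 9 to 34 reads. The reason for the 0 was not tested.

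**Figure D3:**
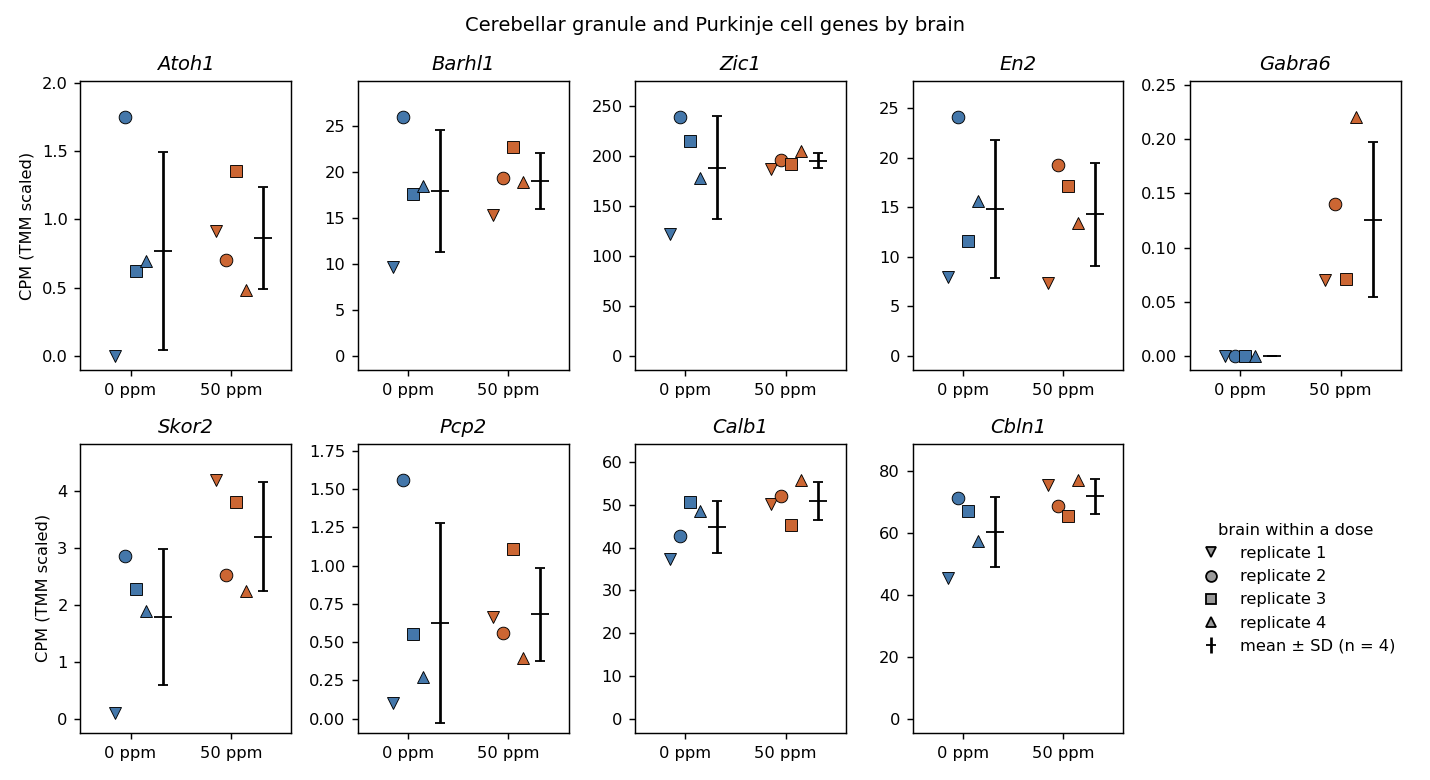
CPM (TMM scaled, linear axes) of the 9 members with reads in each brain at 0 ppm (blue) and 50 ppm (orange), with the mean and SD of the 4 brains of a dose in black; marker shapes give the replicate number, which does not pair brains between doses. 0 ppm replicate 1 (blue triangle pointing down) is the lowest brain for Atoh1, Barhl1, Zic1, Skor2, Pcp2, Calb1 and Cbln1, and only Gabra6 shows no overlap between the doses.

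*Cbln1*, a protein secreted by granule cells that joins their synapses to Purkinje cells, lies on the reverse strand at chr8:87468405-87472609. Its CPM was 45.6, 71.2, 67.1 and 57.4 at 0 ppm and 75.6, 68.8, 65.5 and 77.2 in the 50 ppm brains. The 2 highest brains were exposed and the 2 lowest were controls, with overlap between them. The mean was 60.3 ± 11.4 CPM at 0 ppm and 71.8 ± 5.57 CPM at 50 ppm (SD, n = 4 each). On the log2 scale it differed by 0.25 (SE 0.11, 95% interval 0.02 to 0.48, adjusted p = 0.999 in edgeR's quasi-likelihood test). Without 0 ppm replicate 1 the difference was 0.14 (SE 0.091, 95% interval -0.05 to 0.33) and no longer had an unadjusted p under 0.05. Of a list of 5 genes for the receptors and binding partners of *Cbln1*, 0 passed the adjusted threshold. Before adjustment 1 of the 5 was under 0.05, higher at 50 ppm, against 3.75% of all genes. Without 0 ppm replicate 1 there were 0, against 3.76%. A positive log2 fold change was found for 4 of the 5, against 49.0% of all genes. Their median was 0.08, and 0.03 without 0 ppm replicate 1. *Nrxn2*, a neurexin of the granule cell side and the most abundant gene of the list, had a log2 fold change of -0.05 (SE 0.062).

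Of the Purkinje cell genes, *Skor2* had the widest range. *Skor2*, a corepressor needed for Purkinje cell differentiation, lies on the forward strand at chr18:76856405-76900342. Its reads were 3, 77, 70 and 49 at 0 ppm and 120, 72, 107 and 51 in the 50 ppm brains. 0 ppm replicate 1 was 27.7-fold below the mean of the other 7 brains, and the remaining controls overlapped the lower exposed brains. The mean was 1.79 ± 1.19 CPM at 0 ppm, or 2.35 ± 0.487 without replicate 1 (n = 3), and 3.20 ± 0.959 CPM at 50 ppm. This is a log2 fold change of 0.85 (SE 0.44, 95% interval -0.07 to 1.77, adjusted p = 0.999 in edgeR), and 0.45 (SE 0.24, 95% interval -0.06 to 0.96) without that library.

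*Pcp2*, a modulator of G protein signalling found in Purkinje cells and retinal bipolar cells, lies on the reverse strand at chr8:3623371-3625545. Its reads were 3, 42, 17 and 7 at 0 ppm and 19, 16, 31 and 9 in the 50 ppm brains. As for *Atoh1*, the controls held the highest and the lowest values, and counting error alone gives a coefficient of variation of 23.6%. Its log2 fold change was 0.16 (SE 0.54, 95% interval -0.97 to 1.28), and -0.20 (SE 0.47) without 0 ppm replicate 1. *Pcp2* shares 51.5% of its exon bases with *Pet100* on the opposite strand, which had 102 to 185 reads. The libraries keep the strand, but the strand setting of the counting is not given in the sources used here, so reads of the 2 genes may not be fully separated.

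*Calb1*, the calcium buffer calbindin of Purkinje cells and many other neurons, lies on the forward strand at chr4:15881264-15908064. Its CPM was 37.3, 42.7, 50.6 and 48.6 at 0 ppm and 50.2, 52.2, 45.4 and 56.0 in the 50 ppm brains. The 2 lowest brains were controls and the doses overlapped. It had a log2 fold change of 0.18 (SE 0.096, 95% interval -0.02 to 0.39, adjusted p = 0.999 in edgeR), and 0.11 (SE 0.092) without 0 ppm replicate 1.

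Pairs of members varied together from brain to brain to different degrees. Pearson's r of log2 CPM was computed over the 8 brains for the 15 pairs of the 6 members with a mean of at least 1 CPM. All 15 were positive, 5 had an exact permutation p under 0.05, and 0 passed after adjustment over the 15. *En2* and *Barhl1* had r = 0.85 (exact permutation p = 0.00417, adjusted p = 0.0625) and Spearman's rho = 0.93 (exact permutation p = 0.00223, adjusted p = 0.0335). It was 0.83 without the 2 brains farthest in *En2*, 0.89 without 0 ppm replicate 1 and 0.87 after the dose means were removed. Other pairs rested on few brains. For *Zic1* and *Barhl1* r was 0.89, then 0.59 without 0 ppm replicate 1 and 0.04 without 0 ppm replicates 1 and 2. Without 0 ppm replicate 1, 8 of the 15 pairs were negative.

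With the thinly counted *Atoh1* and *Pcp2* included, a choice made after their values were seen, there were 28 pairs of 8 members. 8 pairs passed after adjustment over the 28, and 0 passed without 0 ppm replicate 1. *Atoh1* of the granule lineage and *Pcp2* of Purkinje cells had r = 0.90 (exact permutation p = 0.000868, adjusted p = 0.0243) and rho = 0.93 (exact permutation p = 0.00223, adjusted p = 0.0312). It was 0.78 without 0 ppm replicates 1 and 2, the farthest in *Atoh1*, and 0.89 without 0 ppm replicate 1 (exact permutation p = 0.00813, adjusted p = 0.0926). After the dose means were removed it was 0.89. *Pcp2* and *Skor2*, both of Purkinje cells, had r = 0.81 (exact permutation p = 0.00734, adjusted p = 0.0399) and rho = 0.90 (exact permutation p = 0.00456), r = 0.84 without the 2 farthest brains and 0.65 without 0 ppm replicate 1. *Atoh1* and *Barhl1* had r = 0.92 (exact permutation p = 0.00605, adjusted p = 0.0399), with rho = 0.69 (exact permutation p = 0.0694), and 0.37 without the 2 farthest brains. The r of *Calb1* with *Atoh1* went from 0.46 over all brains to -0.94 without 0 ppm replicate 1 (exact permutation p = 0.00238, adjusted p = 0.0667). Pairs without *Calb1* also turned negative, such as *Atoh1* and *Cbln1* (0.77, then -0.04). *Calb1* and *Cbln1* stayed positive (0.76, then 0.32).

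**Figure D4:**
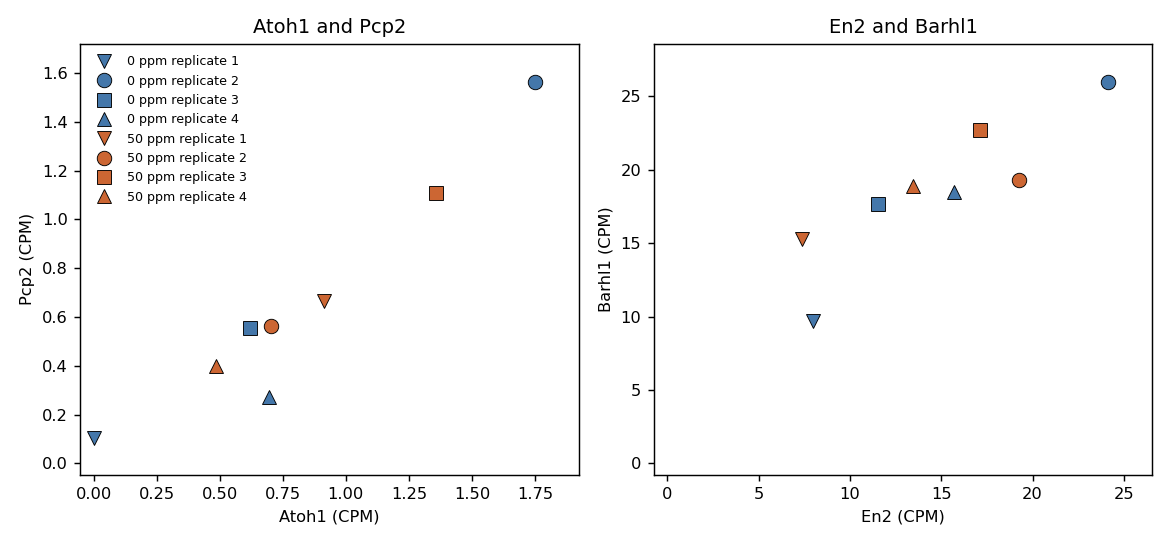
CPM of Pcp2 against Atoh1 (left) and of Barhl1 against En2 (right), each point 1 brain, blue for 0 ppm and orange for 50 ppm, with marker shapes for the replicate number. In both panels 0 ppm replicate 2 is at the top right and the doses are mixed along the trend, with r = 0.90 (left) and r = 0.85 (right) on the log2 scale.

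The genes whose pattern over the 8 brains lay closest to each member were found among 16532 genes by the root mean square distance of centred log2 CPM. For *Skor2* they were its paralogue *Skor1* (0.41 on the log2 scale) and *Atoh1* (0.44), and for *Atoh1* they were *A730009L09Rik* (0.40) and *Skor2* (0.44). *Atoh1* and *Skor2* themselves spread by 1.32 and 1.37 on the same scale; a short distance to the closest of so many genes is fixed by the search. *Pcp2* was closest to *Arhgef33* (0.19, with its own spread at 0.94) and *Gm6104* (0.40). *En2* was closest to *3930402G23Rik* (0.15) and to *Pax5* (0.20), another gene of the midbrain and hindbrain boundary. *Barhl1* was closest to *C1ql4*, *Zic1* to *A530083I20Rik* and *Tchh*, *Calb1* to *Dzank1* and *Spock3*, and *Cbln1* to *Steap2* and *Cdh18*, at distances between 0.04 and 0.12.

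Other genes of the cerebellum were taken from 7 lists with 84 distinct genes, and 0 of the 84 had an adjusted p under 0.05 in edgeR's test. Before adjustment 15 of the 84 were under 0.05, 10 higher and 5 lower at 50 ppm, against 3.75% of all genes, and 14 were without 0 ppm replicate 1. The robust fit left 7 of the 84 (4 higher and 3 lower) and DESeq2 11 (6 higher and 5 lower). For these fits the share of all genes was not counted, so their numbers stand without a background. The 3.75% of edgeR's main fit also belongs beside the count of each list below. The 84 genes had a median log2 fold change of 0.01, or -0.01 without 0 ppm replicate 1.

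Of the 18 other granule lineage genes, 2 were under 0.05 before adjustment. They were *Meis1*, a homeobox factor of granule precursors, with a log2 fold change of 0.51 (SE 0.14) and 0.35 without 0 ppm replicate 1, and *Fat2*, a cadherin of granule cell axons, with 1.02 (SE 0.33) and 0.76, or 0.58 without 50 ppm replicate 3. *Fat2* had 59, 194, 173 and 125 reads at 0 ppm and 213, 159, 501 and 204 at 50 ppm, so its highest value came from that brain, without which it was no longer under 0.05. Next came the netrin receptor *Unc5c* with 0.22 (SE 0.11), from 0.09 to 0.31 with 1 library left out, and the most abundant gene of the list, the adhesion molecule *Cntn2*, had -0.09 (SE 0.11). The median of the list was -0.02, and -0.03 without 0 ppm replicate 1. Of its 18 genes 6 were lowest in 0 ppm replicate 1, against 11.5% of all genes. Its summed CPM in that brain was 104.7% of the mean of the 8 brains.

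Of the 17 other Purkinje cell genes, 2 were under 0.05 before adjustment, among them *Car8*, a carbonic anhydrase relative that binds the IP3 receptor. *Car8* had 655, 1021, 902 and 692 reads at 0 ppm and 999, 1064, 1212 and 795 at 50 ppm, with a log2 fold change of 0.37 (SE 0.13), and 0.26 without 0 ppm replicate 1. The nuclear receptor *Rora* had 0.29 (SE 0.15), and 0.16 without 0 ppm replicate 1, and the most abundant gene, *Foxp2*, had -0.14 (SE 0.12). The median of the list was 0.12, and 0.05 without 0 ppm replicate 1. Of its 17 genes 9 were lowest in 0 ppm replicate 1, against 11.5% of all genes. Its summed CPM in that brain was 88.6% of the mean of the 8 brains.

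Of the 9 genes of other cerebellar cells, 5 were under 0.05 before adjustment. *Pax2*, a factor of cerebellar interneuron precursors and of brainstem and spinal neurons, had 8, 133, 169 and 180 reads at 0 ppm and 567, 201, 206 and 171 at 50 ppm, and its log2 fold change of 1.25 (SE 0.47) was 0.85 without 0 ppm replicate 1 and 0.73, no longer under 0.05, without 50 ppm replicate 1. *Gdf10*, a growth factor of Bergmann glia, had 0.40 (SE 0.13) and 0.37 without 0 ppm replicate 1. *Tfap2a* had 0.57 (SE 0.25), and 0.34 without 0 ppm replicate 1, where it was no longer under 0.05. *Eomes*, which marks unipolar brush cells and also cortical precursors, had -0.60 (SE 0.20), but -0.26 and no longer under 0.05 without 0 ppm replicate 2, its highest brain. *Lmx1a*, of the roof plate, had -0.51 (SE 0.22), and -0.31, likewise above 0.05, without 0 ppm replicate 3. The most abundant gene, *Tfap2b*, had 0.02 (SE 0.23).

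Of the 10 genes of the midbrain and hindbrain boundary, 3 were under it, *Pax2*, *Pax8* with 1.40 (SE 0.53) and *Lmx1b* with 0.62 (SE 0.28), all higher at 50 ppm. Without 50 ppm replicate 1 *Pax8* was at 0.77 and *Lmx1b* at 0.24, both above 0.05, and without 0 ppm replicate 1 *Lmx1b* was at 0.41 and also above it. The most abundant, *Otx2*, had -0.21 (SE 0.17). Of the 13 genes of the sonic hedgehog pathway, which drives granule precursor division, 0 were under 0.05, and 1 was without 0 ppm replicate 1. That was *Cdon*, at -0.16 (SE 0.098) and then -0.22, followed by *Hhip* at 0.22 (SE 0.16) and *Boc* at 0.15 (SE 0.12), and the receptor *Ptch1*, the most abundant, was at 0.00 (SE 0.077). Of the 22 paralogues of the members, 4 were under 0.05, among them *Neurod4*, *Barhl2* and *Skor1*. *Neurod4* had -1.11 (SE 0.27) and *Barhl2* -0.56 (SE 0.18), whereas *Skor1* had 1.04 (SE 0.41), 0.68 without 0 ppm replicate 1 and 0.56, above 0.05, without 50 ppm replicate 1, and *Neurod6*, the most abundant, had -0.09 (SE 0.15). *Neurod4* had 126, 120, 68 and 66 reads at 0 ppm and 41, 61, 49 and 20 at 50 ppm, so its doses did not overlap, and its adjusted p was 0.426 in edgeR's test.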

How the data were processed

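RNA-seq counts of 8 whole brains of newborn B × C females were analysed, 4 for each maternal dose. Raw read counts for each gene, with no normalization, were deposited by the authors after trimming the initial 10 bases, aligning with STAR to the C57BL/6J genome (GRCm38) and counting with htseq-count; versions and the strand setting are not given in the sources used here. The counts of the CAST/EiJ alignment were not used here, because its identifiers are not paired with gene symbols. Symbols were matched for 49326 of 49585 identifiers, and coordinates and exon lengths came from the GENCODE annotation of GRCm38. A gene was tested if at most 5 of the 8 libraries held no read of it.

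Differences were tested with edgeR (version 4.0.16) in R 4.3.3, with TMM scaling, glmQLFit and glmQLFTest with dose as the only term, and Benjamini-Hochberg adjustment over the 23113 genes tested (threshold 0.05). CPM used TMM-scaled library sizes, and log2 CPM a prior count of 2. Correlations were tested with exact two-sided permutation tests. Limits from 3 counts cover counting error only. The intervals of the log2 fold changes came from edgeR's quasi-likelihood fit. Like the p-values, these intervals take in the spread between pups of separate litters. The alternatives were DESeq2 1.42.0, its size factors in edgeR's fit, 2 other filters, a robust fit, limma-voom (limma 3.58.1), other lengths or prior counts and each library left out in turn. The code was tested on simulated data.

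The members and lists were chosen with earlier results of these data known. Named genes are the 10 members, of each list the genes past the adjusted threshold, the 3 with the smallest unadjusted p and the most abundant one, and the 2 genes closest in pattern to each member that reached 10 counts in 4 or more libraries. *Tfap2a*, *Lmx1a*, *Neurod2* and *Dlx1* were named in addition, after their values were seen. Some single genes are not reported here. Replicate numbers were given in accession order.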

Additional observations from a re-analysis of the deposited data

Results flagged for a closer look

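Of 49 groups of 4 brains examined for a sample far from the others, 3 had one, where chance gives about 1 in 20. The summed CPM of the 10 midbrain and hindbrain boundary genes, one of the lists beside the members, was 42.1 in 0 ppm replicate 1 and 67.9 to 69.9 in the other control brains. The summed CPM of the 22 paralogues of the members was 1151 in 50 ppm replicate 1, below the 1216 to 1230 of the other exposed brains. The summed CPM of the 8 choroid plexus genes was 1234 in 0 ppm replicate 2, the brain with the highest *Atoh1*, *En2*, *Zic1*, *Barhl1* and *Pcp2*, against 464 to 581 in the other control brains. None of the members was flagged by itself.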

How the results depend on the processing

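No paired analysis was possible because the replicate numbers follow the order of the accessions and each pup came from a separate litter. None of the 125 alternative fold changes of the members passed the adjusted threshold. The number of genes past it over the whole table was 4, and became 52 without the filter, 2 with a minimum of 10 counts in 4 libraries, 18 with DESeq2, 1 with limma-voom and 2 to 20 with 1 library left out. Of the 84 genes of the other cerebellar lists, 1 passed without the filter, *Neurod4* (log2 fold change -1.11, adjusted p = 0.0290 in edgeR's test), against 0 otherwise, and 7 (robust fit) to 19 were under 0.05 before adjustment. The median of the members ranged from -0.11 (without 0 ppm replicate 1) to 0.34 with 1 library left out. In the same way the log2 fold change ranged from -0.22 to 1.00 for *Atoh1*, -0.26 to 0.29 for *En2* and -0.11 to 0.19 for *Zic1*. It ranged from -0.12 to 0.32 for *Barhl1* and -0.20 to 1.13 for *Pcp2*. Leaving out 1 brain could thus reverse the sign of each of these, and except for *Zic1* more than 1 brain did so singly. The log2 fold change kept its sign for *Calb1* (0.11 to 0.25), *Cbln1* (0.14 to 0.34) and *Skor2* (0.45 to 1.17). limma-voom gave 1.20 for *Atoh1* and 0.92 for *Pcp2*; the cause was not tested. The number of members with an unadjusted p under 0.05 ranged from 1 to 4 with 1 library left out. *Gabra6*, tested only through the 50 ppm brains, was in each of these counts. The share of all genes under 0.05 before adjustment was counted only for the main fit and without 0 ppm replicate 1. The longest transcript as the length moved 2 members in the order of levels. The number of member pairs correlated after adjustment was 0 to 3 with 1 library left out, and 8 with *Atoh1* and *Pcp2* included, an alternative chosen after the data were seen. Depth limited *Atoh1*, *Pcp2* and *Gabra6*, where counting error alone gives coefficients of variation of 21.1%, 23.6% and 78.5%.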

Other observations

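In 0 ppm replicate 1, 29 of the 16532 genes that reached 10 counts in 4 or more libraries were under 25% of every other brain. They were *Atoh1*, *Skor2* and 27 other genes, which were looked up after the data were seen. The same count was not made for any brain but 0 ppm replicate 1. Several of the 27, not all, are known from the inhibitory and dorsal neurons of the brainstem and spinal cord. *Slc6a5*, the glycine transporter of inhibitory neurons, had 7 reads in that brain, 64 in 0 ppm replicate 2 and 589 to 1598 in the other 6. *Lbx1*, a factor of dorsal interneurons, had 4 reads there and 28 to 402 elsewhere, and *Tlx3*, of excitatory dorsal neurons, 5 and 19 to 72. *Sspo*, which encodes SCO-spondin, had 1 read there and 15 to 141 elsewhere.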
